A study of Mus musculus with 6 samples.

Results

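Interferon-stimulated genes are the genes that cells switch on in response to interferon. Described here are 43 of them, chosen by gene symbol, out of 17524 genes measured in the mouse trigeminal ganglion, the cluster of sensory neurons and glia that supplies the face and the meninges. All 43 were in the table and all passed the filter on low values, as did 17475 genes in all. The ganglia came from wild-type (WT) mice in a vehicle group and an NTG group, with 3 libraries each, called vehicle 1, 2 and 3 and NTG 1, 2 and 3 after the labels. NTG is not spelled out in the labels, although in migraine research it usually means nitroglycerin, a nitric oxide donor, and no dose, time, age or sex is given. Whether each library came from a separate mouse or from pooled ganglia is not said either, so the p-values refer to the spread among these libraries, some of which may be technical. In RNA from a whole ganglion, fewer cells of a type and less RNA per cell cannot be told apart.

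Type I interferons bind a receptor whose kinases, JAK1 and TYK2, phosphorylate STAT proteins such as STAT2. A complex that holds STAT2 and IRF9 then binds the interferon-stimulated response element (ISRE) in the promoters of antiviral genes. Interferon gamma acts through another promoter element, the gamma-activated site (GAS). The proteins made include sensors of viral RNA and DNA, enzymes that stop viral translation or degrade RNA, GTPases that attack viruses and the vacuoles of intracellular microbes, and feedback inhibitors such as USP18. Neurons, satellite glia, Schwann cells, endothelial cells and macrophages can all respond, and a low tonic level of these genes is present in uninfected tissue.

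The values were normalised read counts, in which 1 read was worth 0.867 to 1.10 units, from libraries of 18813027 to 23774244 reads. The member with the fewest reads was Ifi208, with at least 6 reads in every library. Vehicle 1 and vehicle 3, which differed most within the vehicle group, had almost the same depth (18813027 and 18825239 reads). The 12 marker genes of sensory neurons were all present, with summed values of 225511 to 231949 in vehicle and 209504 to 216614 in NTG. Of them, 1 rose and 3 fell in NTG at a limma adjusted p under 0.05, against 12.3% and 13.5% of all genes. The highest of them, Nefh, stood at 80548, 84006 and 79324 in vehicle and 76563, 63388 and 70118 in NTG.

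The sequences below show ISRE matches upstream of the RefSeq start of 6 members, and 2 windows without one. The 6 are those with the highest ratio of vehicle 1 to vehicle 3 among members with a match. Promoter windows from RefSeq (build GRCm38.p6, 250 bases before to 50 bases after the annotated start) were matched for 32 of the 43 members. The ISRE core was searched as GAAANNGAAA on both strands, so that a match on the opposite strand reads as TTTC, 2 bases and TTTC. It was found in 18 of the 32 windows (56.3%), against 3.57% of the 13675 tested genes with a window. The GAS core, TTCNNNGAA, which reads the same on both strands, was found in 8 windows (25%), against 8.34%. Each sequence is 80 bases long, in the direction of the gene, with ISRE matches in capitals, and a run of capitals longer than 10 bases holds overlapping matches.
Ifit1: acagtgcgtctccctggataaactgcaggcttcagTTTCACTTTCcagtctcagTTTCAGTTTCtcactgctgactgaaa
Ifit3b: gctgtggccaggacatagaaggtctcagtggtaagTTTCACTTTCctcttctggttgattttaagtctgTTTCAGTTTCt
Ifit3: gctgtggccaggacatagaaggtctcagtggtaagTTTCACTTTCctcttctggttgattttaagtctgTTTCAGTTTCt
Oas1a: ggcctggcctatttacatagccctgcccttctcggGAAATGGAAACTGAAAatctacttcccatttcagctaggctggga
Rsad2: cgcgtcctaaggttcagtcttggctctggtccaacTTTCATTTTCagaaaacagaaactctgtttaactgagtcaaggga
Gbp3: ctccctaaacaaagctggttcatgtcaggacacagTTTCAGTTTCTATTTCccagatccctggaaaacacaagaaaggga
Oasl2: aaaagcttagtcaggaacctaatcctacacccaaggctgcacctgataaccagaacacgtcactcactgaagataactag
Ifit2: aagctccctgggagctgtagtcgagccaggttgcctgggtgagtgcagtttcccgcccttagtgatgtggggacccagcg
The first 6 are the windows with a match, and the last 2 belong to highly expressed members without one. They lie at chr19:34640750-34640829 (plus strand), chr19:34607734-34607813 (plus strand), chr19:34583338-34583417 (plus strand), chr5:120907501-120907580 (minus strand), chr12:26456528-26456607 (minus strand), chr3:142559964-142560043 (plus strand), chr5:114896874-114896953 (plus strand) and chr19:34550634-34550713 (plus strand). The windows of Ifit3 and Ifit3b are identical over all 80 bases. In the deposited values the spans of Ifit3, Ifit3b and Ifit2 start at 34583119, 34607530 and 34550550, so the windows of these genes lie inside their spans. In GENCODE M21, 4 of the windows held no exon of these genes, and in the other 4 between 18 and 21 bases at the gene's side were exonic. A match describes letters in this window and is no measured binding site, and no match says only that the letters are not in it.

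The 43 genes varied together between libraries of the vehicle group. Vehicle 1 had the highest value of all 6 libraries for 41 members (95.3%), against 15.7% of all genes tested. The exceptions were Ifitm7, highest in vehicle 3, and Samd9l, highest in NTG 1. The values were highest in vehicle 1, next in vehicle 2 and lowest in vehicle 3 for 40 members (93.0%), against 17.7% of all genes, with Trim25, Ifitm7 and Ifi27 as the exceptions. Vehicle 1 was at least 2-fold above vehicle 3 for 27 members (62.8%), against 4.45% of all genes. These are counts from single libraries, without a test.

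Member by member, the ratio of vehicle 1 to vehicle 3, with 1 added to each value, had a median of 2.21 and ran from 0.914 (Ifitm7) to 6.29 (Oas2). Over all genes its median was 0.996. Between vehicle 1 and vehicle 2 the median fold was 1.58, and all 43 members were higher in vehicle 1. Between vehicle 2 and vehicle 3 it was 1.47, and 40 members were higher in vehicle 2. For vehicle 1 against vehicle 3, counting error was smaller than the difference for 42 members. Their exact 95% interval of the read ratio lay above 1, and that of Ifitm7 included 1 (0.748 to 1.12). The interval covers counting error only, and none was made for the other pairs of libraries.

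**Figure D1:**
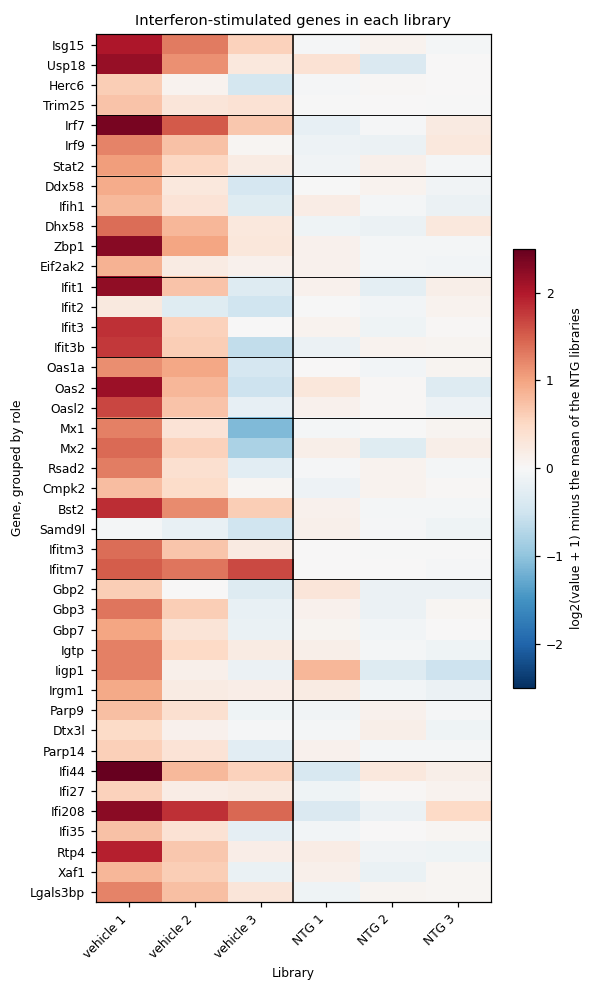
Heat map of the 43 genes (rows, grouped by role) in the 6 libraries (columns), with colour giving log2(value + 1) minus the mean of the 3 NTG libraries. The vehicle 1 column is red for nearly every gene, vehicle 2 is paler, vehicle 3 is mixed, and the 3 NTG columns stay close to 0.

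Vehicle 3 lay at about the level of the NTG libraries. Its median ratio was 0.943 to NTG 1, 0.993 to NTG 2 and 0.988 to NTG 3, and 17, 21 and 21 of the 43 members were higher in vehicle 3. For 20 members (46.5%) the vehicle 3 value was below all 3 NTG values, against 37.7% of all genes, and for 9 (20.9%) it lay within their range, against 24.4%. For the other members it was above all 3 NTG values. By contrast, the ratio of vehicle 1 to the NTG mean had a median of 2.35.

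**Figure D2:**
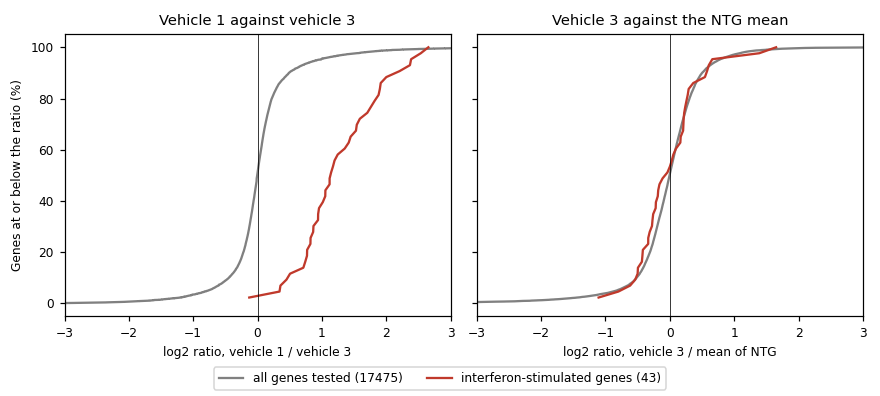
Share of genes (vertical axis, percent) at or below a given log2 ratio (horizontal axis), for all 17475 genes tested in grey and the 43 interferon-stimulated genes in red. The left panel compares vehicle 1 with vehicle 3, where the red curve is shifted to the right (median ratio 2.21), and the right panel compares vehicle 3 with the NTG mean, where the curves run together (median ratio 0.975).

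The spread within the groups was unequal. The coefficient of variation (SD divided by the mean) over the 3 vehicle libraries had a median of 39.7% and ran from 10.8% (Ifitm7) to 85.5% (Ifit1), and 37 members were above 25%. For the 16690 genes with a mean of at least 10 it had a median of 9.11%. Over the NTG libraries the median of the members was 7.91%, close to the 7.24% of those 16690 genes, and 2 members, Iigp1 and Ifi208, were above 25%.

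Markers of other cell types were summed per library to set beside this pattern. The 10 macrophage markers, all present, summed to 3586, 3453 and 3196 in vehicle and 2851, 2593 and 2601 in NTG, and 2 of the 10 were at least 2-fold higher in vehicle 1 than in vehicle 3. The 6 monocyte markers summed to 262, 238 and 194 in vehicle and 338, 310.4 and 395 in NTG. Of these, 2, Plac8 and Ms4a4c, were at least 2-fold higher in vehicle 1 than in vehicle 3. Ms4a4c and Ly6c2 of this list are also on the list of further interferon-stimulated genes below, so they are counted on both. The 7 neutrophil markers in the table, 1 of which (Mpo) was at 0 in some library, summed to 93.7, 486 and 206 in vehicle and 137, 138 and 914 in NTG, so vehicle 1 was the lowest. Only 2 of 11 listed T and NK cell markers were in the table, at a sum of 31.6, 25.7 and 20.9 in vehicle and 23.0, 21.3 and 23.4 in NTG. The 4 B and plasma cell markers in the table (Cd79b at 0 in some library) summed to 323 to 371 in vehicle and 299.6 to 474 in NTG. The 6 dendritic cell markers summed to 879 to 1089 in vehicle and 1026 to 1143 in NTG, and most of that sum came from Flt3 and Zbtb46. The other dendritic cell markers were low, and 3 of the 6 were at least 2-fold higher in vehicle 1 than in vehicle 3. Siglech, which marks plasmacytoid dendritic cells, stood at 37.0, 21.6 and 4.41 in vehicle and 18.9, 33.1 and 27.7 in NTG. Clec9a, which marks conventional type 1 dendritic cells, stood at 20.7, 25.7 and 4.41 in vehicle and 53.4, 50.1 and 46.8 in NTG. Itgax, the integrin CD11c, stood at 26.2, 28.8 and 5.51 in vehicle and 9.43, 10.7 and 5.20 in NTG. For Siglech and Clec9a, vehicle 3 was thus the lowest of the 6 libraries. Cd209a, also of this list, stood at 4.36, 8.23 and 19.8 in vehicle, in the opposite order, and Bst2, a member, was left out of the list. The 9 endothelial markers summed to 4085, 3433 and 3326 in vehicle and 3744, 3942 and 3719 in NTG, with vehicle 1 the highest. The Schwann cell markers summed to 310004, 303825 and 283378 in vehicle and 292463, 285425 and 268172 in NTG. Of the 14 marker lists, 4 had their highest sum of the 6 libraries in vehicle 1, the library where the interferon-stimulated genes were highest. They were those of macrophages, T and NK cells, endothelial cells and Schwann cells. Single markers highest in vehicle 1 were only Cldn5 and Esam of the endothelial list and Mbp and Mag of the Schwann cell list. On the macrophage list they were Aif1, Csf1r, C1qb, C1qc, Cd68 and Fcgr1, and on the T and NK cell list Trac. The other markers of these 4 lists were highest in another library. The sums of these 4 lists and of the monocyte list also showed the order vehicle 1, vehicle 2, vehicle 3. Among single markers that order held for 4 of 10 of macrophages, 3 of 9 endothelial, 1 of 8 Schwann cell and 2 of 6 monocyte markers. It held for 0 of 2 T and NK cell markers, and for 17.7% of all genes. The part of these cell types in the pattern was not tested.

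The ubiquitin-like modifier ISG15 and its enzymes come first. Isg15 stood at 389, 236 and 142 normalised reads in vehicle 1, 2 and 3 and at 93.2, 100.3 and 91.0 in NTG 1, 2 and 3. The 3 NTG values lay together and below every vehicle value, and vehicle 1 was the highest. Its mean was 256 ± 125 in vehicle and 94.8 ± 4.81 in NTG (SD, n = 3 each), and it fell in NTG (log2 fold change -1.30 ± 0.31 (SE), limma adjusted p = 0.0139). Isg15 missed the threshold without vehicle 2 (adjusted p = 0.0653), without any of the NTG libraries (0.0659 to 0.0728) and after removal of each library's trend over GC content and length (0.0662). Usp18, which removes ISG15 from proteins and dampens the receptor, stood at 356, 175 and 94.7 in vehicle and 101, 60.8 and 78.9 in NTG. Vehicle 3 lay within the NTG range, and the gene did not pass (log2 fold change -1.20 ± 0.53 (SE), limma adjusted p = 0.176). Trim25, a ubiquitin ligase that acts with the RNA sensor RIG-I, stood at 805, 605 and 636 in vehicle and 493, 499 and 488 in NTG. Its groups did not overlap, and vehicle 1 was only 1.27-fold above vehicle 3. Trim25 fell (log2 fold change -0.45 ± 0.10 (SE), limma adjusted p = 0.00198), and did so in all 25 alternative analyses. Herc6, the main ISG15 ligase in mice, ranged from 78.2 to 163 in vehicle and from 103.7 to 107.7 in NTG, with overlapping groups (log2 fold change -0.09, adjusted p = 0.807).

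Among transcription factors of the pathway, Irf7, which drives interferon production and is itself induced, stood at 670.2, 373 and 205 in vehicle and 111, 126 and 151 in NTG. Every NTG value lay below every vehicle value, but vehicle 1 was 3.26-fold above vehicle 3. With this spread Irf7 did not pass (log2 fold change -1.53 ± 0.48 (SE), limma adjusted p = 0.0915), while without vehicle 1 it did (log2 fold change -1.10, adjusted p = 0.00187). Stat2, a subunit of the complex that binds the ISRE, stood at 2003, 1392 and 1131 in vehicle and 921, 1065 and 946 in NTG. The groups again did not overlap, the test was not passed (log2 fold change -0.59 ± 0.23 (SE), limma adjusted p = 0.143), and it was passed without vehicle 1 (-0.36, adjusted p = 0.00655). Irf9, the DNA-binding subunit of the same complex, ranged from 448 to 1029 in vehicle and from 396 to 521 in NTG, with vehicle 3 inside the NTG range (-0.67, adjusted p = 0.263).

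Of 5 genes for sensors of viral nucleic acids, 2 fell. Dhx58 encodes LGP2, a regulator of the RNA helicase sensors, and stood at 159, 107 and 72.7 in vehicle and 55.5, 54.4 and 72.0 in NTG. The highest NTG value, in NTG 3, lay just under the vehicle 3 value. The fall passed with all 6 libraries (log2 fold change -0.83 ± 0.25 (SE), limma adjusted p = 0.0182) and did not pass without vehicle 1 (adjusted p = 0.112), vehicle 2 (0.055), NTG 1 (0.0665) or NTG 2 (0.0743). Nor did Dhx58 pass after removal of the GC and length trend (limma adjusted p = 0.0594). Zbp1, a sensor of Z-form nucleic acids, stood at 122, 49.4 and 29.7 in vehicle and 26.2, 23.5 and 23.4 in NTG. Vehicle 1 was 4.0-fold above vehicle 3, whose value was close to the NTG values. Zbp1 fell (log2 fold change -1.18 ± 0.39 (SE), limma adjusted p = 0.0323), but missed the threshold when any library other than vehicle 3 was left out (adjusted p = 0.193 without vehicle 1, and 0.0681 to 0.0985 without vehicle 2 or an NTG library). After removal of the GC and length trend it also missed the threshold (limma adjusted p = 0.0588). Eif2ak2, the kinase PKR that halts translation on double-stranded RNA, was the highest of the 5 in normalised reads, at 1076, 679 and 631 in vehicle and 638, 574 and 560.1 in NTG. Vehicle 3 lay within the NTG range, and the gene did not pass (log2 fold change -0.39 ± 0.20 (SE), limma adjusted p = 0.22). Ddx58 (RIG-I) and Ifih1 (MDA5), the RNA helicases, had vehicle 3 values below all 3 NTG values, with log2 fold changes of -0.25 (adjusted p = 0.697) and -0.28 (0.441).

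The IFIT genes, whose products bind foreign RNA and restrict its translation, lie side by side on chromosome 19. Ifit1 stood at 1244, 442 and 214 in vehicle and 288, 225 and 297 in NTG. Vehicle 1 was 5.80-fold above vehicle 3, and vehicle 3 was below all 3 NTG libraries. The group means, 633 ± 541 and 269.9 ± 39.1 (SD, n = 3 each), differed by less than the vehicle SD, and the test was not passed (log2 fold change -0.87 ± 0.73 (SE), limma adjusted p = 0.47). Ifit3 and Ifit3b, with the identical promoter window printed above, showed the same order of the 3 vehicle libraries, with ratios of 3.53 and 5.23 between vehicle 1 and vehicle 3 (log2 fold changes -0.80 and -0.59, limma adjusted p = 0.36 and 0.6). Vehicle 3 lay within the NTG range for Ifit3 and below all NTG libraries for Ifit3b. Of the 100-base stretches of the Ifit3 transcript, 31.7% also occur in another gene, and of those of Ifit3b 27.4%, so reads may be divided between them. Ifit2 was 1 of the 2 members with a log2 fold change above 0, and stood at 822, 559 and 491 in vehicle and 689, 658 and 732 in NTG. Vehicle 1 was again the highest, but vehicle 2 and vehicle 3 were both below every NTG library. With all libraries Ifit2 did not pass (log2 fold change 0.19 ± 0.17 (SE), limma adjusted p = 0.474). Without vehicle 1 it was the only member that passed with a higher level in NTG (log2 fold change 0.40, adjusted p = 0.00374), and after removal of the GC and length trend its log2 fold change was -0.04 (adjusted p = 0.915).

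None of the 3 genes of the OAS family, enzymes that activate RNase L and their relatives, passed. Oas2 had the highest ratio of vehicle 1 to vehicle 3 of all 43 members, 6.29, at 123, 49.4 and 18.7 in vehicle and 33.5, 27.7 and 21.7 in NTG. Vehicle 3 was below all NTG libraries, and Oas2 did not pass (log2 fold change -0.82 ± 0.57 (SE), limma adjusted p = 0.339). Oasl2, an OAS-like protein with ubiquitin-like domains, stood at 2310.1, 1198 and 627 in vehicle and 780.5, 743 and 662 in NTG. It showed the same order with a ratio of 3.68, and its printed window held no ISRE match (log2 fold change -0.72 ± 0.53 (SE), limma adjusted p = 0.413). Oas1a, with a ratio of 3.01, stood at 30.8 to 94.8 in vehicle and 39.5 to 43.3 in NTG (log2 fold change -0.57, adjusted p = 0.227), and shares 40.9% of its 100-base stretches with other genes, chiefly Oas1g.

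None of the 6 antiviral effectors with other modes of action passed with all libraries. Mx1, a dynamin-like GTPase that blocks influenza viruses, stood at 61.0, 31.9 and 11 in vehicle and 24.1, 24.5 and 26.0 in NTG. Vehicle 1 and 2 lay above the closely spaced NTG values and vehicle 3 below them, with a ratio of 5.16 between vehicle 1 and vehicle 3, and Mx1 did not pass (log2 fold change -0.17 ± 0.46 (SE), limma adjusted p = 0.83). Mx2 followed with a ratio of 4.62 (-0.40, adjusted p = 0.625), and Rsad2, which encodes viperin, with 2.91 (-0.48, adjusted p = 0.461). Cmpk2, a mitochondrial nucleotide kinase gene next to Rsad2, stood at 1012, 818 and 618 in vehicle and 545, 635 and 605 in NTG. Vehicle 3 lay inside the NTG range, and Cmpk2 did not pass with all libraries (log2 fold change -0.43 ± 0.16 (SE), limma adjusted p = 0.0745). It passed in 6 of 25 alternatives, removal of the GC and length trend among them (adjusted p = 0.0459). Bst2, or tetherin, which holds budding virus on the cell surface, stood at 842, 531 and 355 in vehicle and 249, 225 and 224 in NTG. All NTG values were below all vehicle values, and with the spread between vehicle libraries Bst2 just missed the threshold (log2 fold change -1.22 ± 0.33 (SE), limma adjusted p = 0.0517). Bst2 passed without vehicle 1 (-0.90, adjusted p = 0.000227). Samd9l, a restriction factor, differed from the rest, with 205 to 280 in vehicle and 269.6 to 316 in NTG and a log2 fold change of 0.24 ± 0.13 (SE, adjusted p = 0.187), the highest of the 43.

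The 2 IFITM genes, whose products block viral entry at membranes, had unlike library patterns. Ifitm3 stood at 1145, 704 and 508 in vehicle and 438, 434 and 433 in NTG. The NTG values lay close together and below all vehicle values, and vehicle 1 was 2.25-fold above vehicle 3. Ifitm3 did not pass with all libraries (log2 fold change -0.77 ± 0.32 (SE), limma adjusted p = 0.171) and passed without vehicle 1 (-0.46, adjusted p = 0.00673). Ifitm7 stood at 211, 186 and 231 in vehicle and 73.3, 73.6 and 72.0 in NTG. Here the 3 vehicle libraries lay close together, vehicle 3 was the highest, and no vehicle value came near an NTG value. Ifitm7 fell from 209.7 ± 22.6 to 73.0 ± 0.876 (SD, n = 3 each; log2 fold change -1.50 ± 0.16 (SE), limma adjusted p = 4.15e-06), and passed in all 25 alternatives. On GRCm38 it lies at chr16:13981702-13986867, minus strand, opposite Bmerb1, a gene at 17.5 times its level. The libraries were strand-specific, but the strand setting of the counting is not given in the sources used here, so reads of Bmerb1 in the overlap cannot be told apart from those of Ifitm7.

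The interferon-induced GTPases, which act against intracellular microbes, held no member that passed. Gbp3, a guanylate-binding protein with 2 overlapping ISRE matches in its printed window, stood at 717, 431 and 248 in vehicle and 302, 255 and 290.4 in NTG. Vehicle 3 was below the NTG libraries and Gbp3 did not pass (log2 fold change -0.59 ± 0.43 (SE), limma adjusted p = 0.404). Gbp7, of the same family, stood at 775, 493 and 350.3 in vehicle and 409, 372 and 394 in NTG, with vehicle 3 again the lowest of the 6 (log2 fold change -0.39 ± 0.30 (SE), limma adjusted p = 0.429). Igtp, an immunity-related GTPase also called IRGM3, stood at 837, 491 and 403 in vehicle and 386, 338 and 324 in NTG. Its groups did not overlap, and it passed without vehicle 1 (-0.35, adjusted p = 0.0337) and not with all libraries (log2 fold change -0.66 ± 0.29 (SE), limma adjusted p = 0.172). Irgm1 (-0.44, adjusted p = 0.0861) and Gbp2 (-0.10, adjusted p = 0.802) also overlapped between groups. Iigp1 was the exception in NTG, at 149 in NTG 1 against 66.1 and 58.1 in NTG 2 and 3, and at 202, 90.6 and 74.9 in vehicle (-0.42, adjusted p = 0.626).

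Parp9 and Dtx3l encode partners in one complex of ADP-ribosylation and ubiquitin ligation, and are transcribed in opposite directions from a shared, overlapping start. Parp9 stood at 337, 263 and 184 in vehicle and 188, 214 and 195 in NTG. Parp14, a mono-ADP-ribosyltransferase gene nearby, stood at 672, 563 and 369 in vehicle and 478, 429.8 and 427 in NTG. For both genes vehicle 1 and 2 were above and vehicle 3 below all NTG libraries. These ratios of vehicle 1 to vehicle 3, 1.83 and 1.82, and the 1.42 of Dtx3l all stayed under 2. None passed, with log2 fold changes of -0.35 for Parp9 (limma adjusted p = 0.148), -0.22 for Parp14 (0.472) and -0.19 for Dtx3l (0.288).

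Of the remaining 7 genes, 3 fell. Ifi208, a member of the PYHIN family of DNA-binding proteins, was the lowest in level and had the lowest fold change of the 43. It stood at 43.6, 31.9 and 24.2 in vehicle and 6.29, 7.47 and 12.1 in NTG, with no overlap. Ifi208 fell (log2 fold change -1.84 ± 0.43 (SE), limma adjusted p = 0.00357) in all 25 alternatives, and it shares 8.23% of its 100-base stretches with other genes. Ifi44, a cytoplasmic protein induced by type I interferon, stood at 123, 38.1 and 31.9 in vehicle and 15.7, 25.6 and 23.4 in NTG. Vehicle 1 alone stood far above the other 5 values, and the groups did not overlap. Ifi44 fell with all libraries (log2 fold change -1.29 ± 0.42 (SE), limma adjusted p = 0.031) and missed the threshold without vehicle 1 (adjusted p = 0.177), NTG 1 (0.126), NTG 2 (0.0538) or NTG 3 (0.0565). Ifi27, a small membrane protein, was high in all 6 libraries, at 3944, 3035 and 3082 in vehicle and 2459, 2691 and 2816 in NTG. The groups did not overlap, and the fall was small (log2 fold change -0.33 ± 0.09 (SE), limma adjusted p = 0.0171). Ifi27 did not pass without NTG 1 (adjusted p = 0.0751) or NTG 2 (0.0504), nor after removal of the GC and length trend (0.147).

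Lgals3bp, a secreted glycoprotein that binds galectins, stood at 2499, 1789 and 1301 in vehicle and 982, 1113 and 1091 in NTG. The groups did not overlap, and Lgals3bp passed without vehicle 1 (-0.52, adjusted p = 0.00434) but not with it (log2 fold change -0.76 ± 0.27 (SE), limma adjusted p = 0.119). Rtp4, a receptor chaperone with antiviral activity, had a ratio of vehicle 1 to vehicle 3 of 3.39 (-0.93, adjusted p = 0.257). Ifi35 (1.94-fold; -0.29, adjusted p = 0.352) and Xaf1, which binds the apoptosis inhibitor XIAP (2.02-fold; -0.43, adjusted p = 0.271), had vehicle 3 values below all NTG values. Per kilobase of the longest annotated transcript, the highest members averaged over the 6 libraries were Ifi27 at 3075 normalised reads, Ifitm3 at 900.1 and Lgals3bp at 628, and the lowest was Ifi208 at 7.0.

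**Figure D3:**
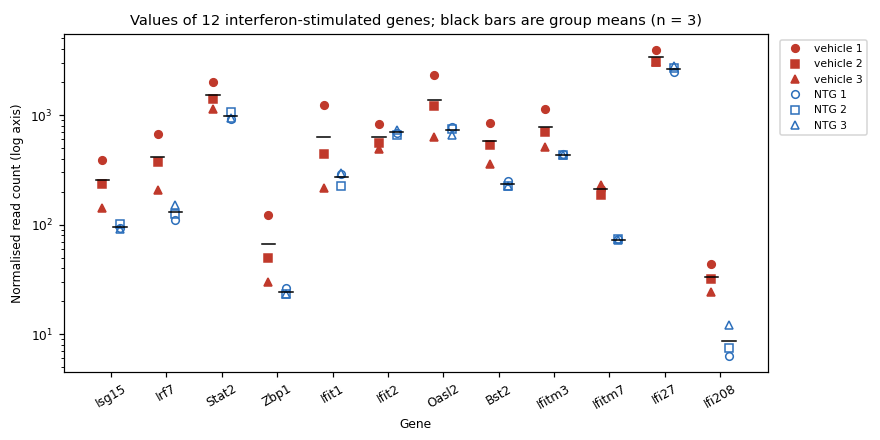
Normalised read counts (log axis) of 12 of the genes in each library, with filled red symbols for vehicle, open blue symbols for NTG and black bars for the group means (n = 3). For Ifit1 and Oasl2 the vehicle values spread across the NTG values, for Isg15, Irf7 and Bst2 they spread above them, and for Ifitm7 both groups are tight.

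Between the groups, 8 of the 43 members fell in NTG (18.6%) at a limma adjusted p under 0.05, against 13.5% of all genes tested, and 0 rose, against 12.3%. The 8 were Isg15, Trim25, Dhx58, Zbp1, Ifitm7, Ifi44, Ifi27 and Ifi208. At an unadjusted p under 0.05, 13 members were lower in NTG (30.2%), against 19.1% of all genes, and 0 were higher, against 17.8%. At the adjusted threshold the share called lower was near that of the whole table. The median log2 fold change of the members was -0.57, against 0.00 for all genes, with 41 of 43 below 0 and a range from -1.84 to 0.24. All 3 NTG values lay below all 3 vehicle values for 14 members (32.6%), against 20% of all genes, and above them for 0, against 19.7%.

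A count test, edgeR's quasi-likelihood fit to the recovered whole reads, called 23 members lower (53.5%), against 13% of all genes, and 0 higher, against 12.5%. Its 23 included the 8 of limma, and Irf7, Stat2, Bst2, Ifitm3, Igtp and Lgals3bp were among the others. The limma fit in turn passed those 6 genes when vehicle 1 was left out.

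The group comparison depended on which vehicle library was in it. Without vehicle 1, limma called 11 members lower (25.6%), against 13.8% of all genes, and 1, Ifit2, higher, against 12.9%. The members then had a median log2 fold change of -0.21. The 11 were Isg15, Trim25, Irf7, Stat2, Bst2, Ifitm3, Ifitm7, Igtp, Ifi27, Ifi208 and Lgals3bp. Without vehicle 3 it called 31 lower (72.1%), against 12.1%, and 0 higher, against 11.5%, with a median of -0.88. Every member was higher in vehicle 1 than in vehicle 2. Leaving out vehicle 1 thus could not change the 14 members without overlap, while 26.4% of all genes then had no overlap. Without vehicle 3 there were 38 such members (88.4%), against 25.4%. Without vehicle 2 the test called 5 members lower (10.1% of all genes), without NTG 1 it called 3 (9.29%), without NTG 2 it called 3 (9.26%) and without NTG 3 it called 5 (13.5%). Trim25, Ifitm7 and Ifi208 passed in every one of these 6 fits.

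**Figure D4:**
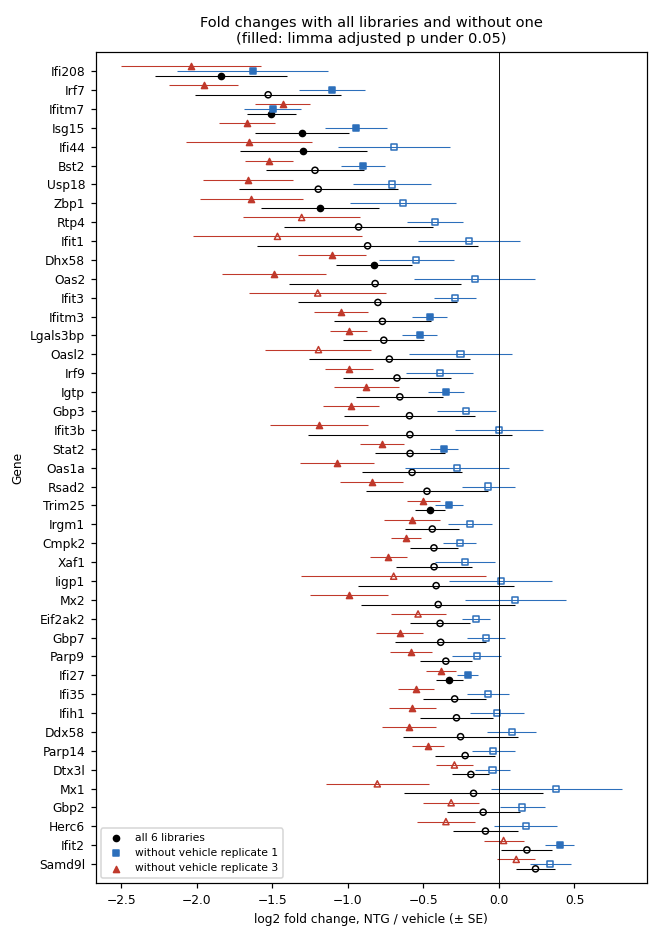
Log2 fold changes of NTG over vehicle with their standard errors for the 43 genes, with all 6 libraries (black circles), without vehicle 1 (blue squares) and without vehicle 3 (red triangles), filled where the limma adjusted p was under 0.05. Most genes move towards 0 without vehicle 1 (median -0.21) and away from it without vehicle 3 (median -0.88), while Ifitm7 stays nearly in place. Trim25, at -0.45 with all libraries, moves to -0.33 without vehicle 1 and to -0.50 without vehicle 3, and is filled in each fit.

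Base composition was also checked, because each library can favour transcripts by GC content and length. The members had a median transcript GC content of 47.4% (38.8% to 55.8%), against 49.9% for all genes. After each library's smooth trend over GC content and length was removed, limma called 6 members lower (14.0%), against 6.0% of all genes, and 0 higher, against 3.86%. The 6 were Trim25, Cmpk2, Ifitm7, Irgm1, Ifi44 and Ifi208, and the members' median log2 fold change became -0.63. Reads shared with other genes could be checked by sequence. In all, 11 members overlap another gene and 13 share at least 1 stretch of 100 bases with one. Besides Ifitm7, the members opposite a gene at 0.252 times their own level or more were Isg15, Parp9, Dtx3l and Rtp4, and the same limit on strand holds for them. On the same strand, Eif2ak2 overlaps Gm6548, a gene at 0.27 times its level, and Stat2 overlaps Apof, at 0.0085 times its level. There the strand cannot separate the reads. Of the 23 members with no overlapping gene and no shared 100-base stretch, 15 (65.2%) were at least 2-fold higher in vehicle 1 than in vehicle 3, close to the 62.8% of all 43. Of the members with a promoter window, 13 of the 18 with an ISRE match and 6 of the 14 without one were at least 2-fold higher in vehicle 1, with median ratios of 2.31 and 1.93.

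The rest of the pathway was read from lists of genes that are not among the 43. None of the 14 listed interferon ligand genes was in the table, so the ligands were not analysed here. Of 11 genes for receptors, JAK kinases and STATs, 2 rose and 1 fell in the same limma fit, against 12.3% and 13.5% of all genes. The receptor subunits of type I interferon, Ifnar1 (-0.01, adjusted p = 0.898) and Ifnar2 (-0.03, adjusted p = 0.874), did not pass. Ifngr1, a subunit of the interferon gamma receptor, rose from 595 ± 64.9 to 719.7 ± 46.1 (SD, n = 3 each; log2 fold change 0.28, adjusted p = 0.0276). Jak1 also rose (0.17, adjusted p = 0.015) and Stat3 fell (-0.15, adjusted p = 0.0399).

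Of 7 other interferon regulatory factors, 0 were at least 2-fold higher in vehicle 1 than in vehicle 3, against 4.45% of all genes, so a list this short says little. The order vehicle 1, vehicle 2, vehicle 3 was shown by 1 of the 7 (14.3%), Irf1, against 17.7% of all genes. Irf1, which drives interferon gamma targets, stood at 449, 388 and 324 in vehicle and 421, 357 and 359 in NTG. It did not pass (log2 fold change -0.02, limma adjusted p = 0.922). Of these 7 genes 2 fell, against 13.5% of all genes, Irf3 (-0.25, adjusted p = 0.0404) and Irf5 (-0.57, adjusted p = 0.0319). Among 18 genes for adaptors and kinases of nucleic acid sensing, 1 rose and 1 fell, against 12.3% and 13.5% of all genes. Tbk1, the kinase of IRF3, rose (0.30, adjusted p = 0.00492) and Unc93b1, which escorts endosomal Toll-like receptors, fell (-0.39, adjusted p = 0.027). Among 13 negative regulators, 2 rose and 2 fell, against the same shares of all genes. Pias1 (0.44, adjusted p = 0.000543) and Cyld (0.23, adjusted p = 0.0192) rose, and the feedback inhibitors Socs1 (-0.92, adjusted p = 0.0205) and Socs3 (-0.40, adjusted p = 0.0158) fell. Socs1 had vehicle values of 77.4, 78.2 and 43.0 and NTG values of 37.7, 34.1 and 28.6, so the 3 NTG libraries lay below all vehicle libraries. None of the genes said here to have risen or fallen among the receptors, regulatory factors, adaptors and negative regulators passed after the GC and length trend was removed.

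A further list held 82 interferon-stimulated genes outside the 43, of which 75 were tested. In vehicle 1, 31 of them (41.3%) were at least 2-fold above vehicle 3, against 4.45% of all genes, with a median ratio of 1.87. The order vehicle 1, vehicle 2, vehicle 3 was shown by 49 (65.3%), against 17.7% of all genes. In limma 10 of the 75 fell, near the 13.5% of all genes, and 2 rose, against 12.3%, with a median log2 fold change of -0.31. The falls included Oas1b (-1.05, adjusted p = 0.0235), Slfn2 (-0.96, adjusted p = 0.011), Parp10 (-0.56, adjusted p = 0.00418) and Pml (-0.33, adjusted p = 0.0181). Tap1, a subunit of the peptide transporter (-0.81, adjusted p = 0.0259), and the immunoproteasome subunits Psmb9 (-0.86, adjusted p = 0.00454) and Psmb10 (-0.33, adjusted p = 0.00722) also fell. Psmb8, the third immunoproteasome subunit, did not pass (-0.61, adjusted p = 0.0789). Ifitm2 (-0.31, adjusted p = 0.0462), Shisa5 (-0.51, adjusted p = 0.00342) and Znfx1 (-0.25, adjusted p = 0.00381) completed the 10, and the rises were those of Ifit1bl1 (0.88, adjusted p = 0.0482) and Parp11 (0.32, adjusted p = 0.025). Parp10 stood at 427, 330.4 and 279.8 in vehicle and 230.5, 231 and 229.8 in NTG, with NTG values almost identical to each other. After the GC and length trend was removed, 5 of the 75 fell and 0 rose, against 6.0% and 3.86% of all genes. The 5 were Slfn2, Psmb9 and Shisa5, which had also passed before, and Slfn5 and Ddx60, which had not. The other 7 of the 10 did not pass then, among them Parp10 (adjusted p = 0.144) and Psmb10 (adjusted p = 0.374).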

How the data were processed

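Poly-T-enriched RNA from trigeminal ganglia was sequenced in paired ends from strand-specific libraries, per the labels' protocols. The submitters' processing notes name FastQC, HISAT2 and the build GRCm38. How reads were counted (tool, strand setting and annotation) and normalised is not given in the sources used here. The authors deposited 1 signal value per gene and library, which the values show to be read counts divided by a size factor: 100% were whole multiples of 1 read within a tolerance of 0.01. Within groups, every pair of libraries differed beyond counting error (chi-square divided by its degrees of freedom, 4.10 to 7.99), and each counts as 1 replicate. At these depths 3 reads equal 0.126 to 0.159 CPM, for counting error only.

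Groups and replicate numbers came from the labels. The main test was two-sided and used limma (trend and robust options of its empirical Bayes step) on log2(value + 1), fitted to the 17475 genes that reached a value of 1 in 3 or more libraries, and p-values were adjusted by Benjamini-Hochberg over all of them. Fold changes are on this scale, which understates the change of low genes. Means ± SD are of the normalised values. The edgeR test on recovered reads called 2279 genes lower and 2182 higher. Other settings were pseudocounts of 0.5 and 5, no filter, a mean of at least 10, total-count and TMM scaling, DESeq2, limma-voom, the replicate number as a block, removal of each library's trend over GC content and length (mgcv), and each library left out in turn. That removal with a library left out, edgeR without vehicle 1, the no-overlap counts without vehicle 1 or 3, and the omission of members with overlapping or shared sequence were added after seeing the data.

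The members, the lists and the comparison of vehicle 1 with vehicle 3 were chosen with earlier results of these data known, so no pattern here is independent support. Values in all libraries are given for members past the threshold, for members whose groups do not overlap, and for the member of each role with the highest mean or the highest ratio of vehicle 1 to vehicle 3. Pathway genes are named when past the threshold. Ifnar1, Ifnar2, Irf1 and Psmb8 did not pass it and were named after their values were seen. Some genes of these lists are not reported here. Transcript sequences were from GENCODE M21 and promoters from RefSeq. Scripts were tested on simulated data. The fits ran in R (4.3.3) with the packages mgcv (1.9.3), DESeq2 (1.42.0), edgeR (4.0.16) and limma (3.58.1), and tables and figures in Python (3.11.15) with numpy (2.4.6), matplotlib (3.10.9) and pandas (2.3.3).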

Additional observations from a re-analysis of the deposited data

How the results depend on the processing

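Against the 8 members called lower in NTG, edgeR called 23, DESeq2 16 and limma-voom 5, beside 13.5%, 13%, 14.8% and 12.9% of all genes. Across fits that left out 1 library the count ran from 3 (without NTG 1 or NTG 2) to 31 (without vehicle 3). All genes called lower were then 9.29%, 9.26% and 12.1%. With the GC and length trend also removed it ran from 3 without NTG 2 (3.37% of all genes) to 32 without vehicle 3 (6.04%). In between were 4 without NTG 1 (4.4%), 4 without NTG 3 (4.98%), 5 without vehicle 2 (4.17%) and 11 without vehicle 1 (6.52%). Members called higher numbered 0 in the main fit and from 0 to 1 with libraries left out, the 1 being Ifit2 without vehicle 1, also in edgeR. Members without overlap between groups numbered 38 without vehicle 3, against 25.4% of all genes. Without vehicle 1 their number, 14, could not change, as said above. The pathway lists held 11, 7, 18, 13 and 75 tested genes, a few of them listed more than once. Of these genes, 16 were lower and 7 higher, against 13.5% and 12.3% of all genes. With a library left out these counts ran from 7 to 31 and from 2 to 9, against 9.26% to 13.8% and 7.59% to 12.9%. With the GC and length trend removed they were 5 and 0, against 6.0% and 3.86%. With a library also left out they ran from 0 to 30 and from 0 to 2, against 3.37% to 6.52% and 1.43% to 4.34%. In these last fits the Irf3 log2 fold change turned positive, at 0.012 (without vehicle 2) and 0.0025 (without NTG 3), and the Cyld log2 fold change turned negative, at -0.025 (without vehicle 2) and -0.026 (without NTG 2). The cause of these differences was not tested. Pseudocount, filter and scaling moved none of these counts by over 1.5 times, and the order of the vehicle libraries held for 40 members under every scaling run.

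Same-numbered libraries of the 2 groups did not deviate together over 16690 genes (correlations of 0.0012, -0.061 and -0.021). The labels do not say that equal numbers pair libraries. Such correlations cannot tell whether they share a litter or a day. With the replicate number as a block, 13 members were called lower (15.9% of all genes), and 18 with the GC and length trend also removed (7.78% of all genes). In the latter fit 0 pathway genes were higher, against 5.53% of all genes. Ifi27 was not among the 13 (log2 fold change -0.33, limma adjusted p = 0.196). Every member had at least 6 reads in every library.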
